A study of Glycine max with 8 samples.

Results

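The libraries described here are 4 of 8 in an RNA-seq series on soybean (Glycine max) seedlings. They come from seedlings over-expressing GmSIN1 (OE), and they were chosen by genotype and by the replicate number in their titles. Numbers 1 and 2 each hold a mock library and a NaCl library, and number 2 is compared with number 1. All plants were 2-week old seedlings from hydroponic culture, and NaCl stood at 150 mM for 6 h, or a mock treatment was given for the same time. Each library was made from an equal mix of root and leaf RNA. The 4 libraries of the line WEI6823, which carries wild-type GmSIN1 (WT) and received the same treatments, serve as a reference level. They enter a test only where all 8 libraries are fitted together. The labels call the libraries biological replicates. They state neither what libraries of equal number share nor which transgenic event or promoter the OE plants carry. A p-value here therefore speaks only of the spread among the 4 OE libraries, or among all 8 where all were fitted.

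GmSIN1 belongs to the NAC family of plant transcription factors. NAC proteins bind DNA through a conserved domain at the amino end, and many act in root development, senescence and the response to drought and salt. GmSIN1 is known in soybean as a salt-induced member of the family that promotes root growth under salt, acting together with genes of abscisic acid synthesis and of superoxide production.

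The files name loci by ID only, and 4 IDs are printed here, those of the 2 leading loci in each direction. Other loci are given by chromosome and by how they behaved. The level of GmSIN1 itself was not analysed here, and root and leaf were not checked against marker genes. Total expected counts per OE library were 6466660 to 6996308. An expected count is an estimate that divides reads among the gene models they fit. Levels are given as CPM, counts scaled to a common library size, with library sizes adjusted by TMM. A change in the mixed RNA of bulk seedlings cannot be told apart from a change in how much RNA each organ or cell type gave.

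The OE libraries stood apart from each other by number rather than by treatment. The biological coefficient of variation, a measure of how far libraries differ beyond counting noise, was 39.81% between OE mock libraries 1 and 2 and 49% between OE NaCl libraries 1 and 2. Across treatments it was 27.38% for number 1 and 8.11% for number 2. Among the 18537 loci with a mean of at least 10 CPM over all libraries, 2332 (12.6%) differed by 2-fold or more between the mock libraries. Between the NaCl libraries 4179 (22.5%) did so. The mock and NaCl libraries differed by 2-fold at 1077 loci (5.81%) within number 1 and at 20 (0.108%) within number 2. The pair that shares number 2 was thus close, and number 1 contributed most of the spread within numbers.

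Number 2 differed from number 1 at many loci, in about equal numbers of each direction. In edgeR's quasi-likelihood test on the 4 OE libraries, 3427 of 32629 loci were higher and 3564 lower in number 2 at an adjusted p of 0.05, which is 10.5% and 10.9% of the loci tested and 21.4% together. Of the higher loci 2794 had a fitted change of at least 2-fold, and of the lower loci 2843. Their median log2 fold changes were 1.58 and -1.39. The libraries of the 2 numbers did not overlap at any called locus, which follows from the call and adds nothing to it. Of all loci tested, called or not, 34.9% were without overlap toward higher and 32.6% toward lower levels in number 2. DESeq2 called 5220 loci and limma-voom 6526, of which 5006 and 6358 were also called by edgeR, none in the opposite direction. Leaving out a number 1 library raised the count, to 15982 (mock left out) and 11340 (NaCl left out). Leaving out a number 2 library lowered it, to 2104 (mock left out) and 1916 (NaCl left out). With gene models in place of loci, edgeR called 0 (11136 of 43436 models had an unadjusted p under 0.05) and DESeq2 7558.

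The called loci made up very different shares of the libraries. The loci higher in number 2 held 18.4% of the counts in OE mock library 2 and 18.2% in OE NaCl library 2. In number 1 they held 6.99% in mock and 5.99% in NaCl, close to the 6.71% to 6.8% in the WT libraries. The loci lower in number 2 held 5.56% and 5.48% of the counts in number 2. In number 1 they held 12.5% in mock and 17.2% in NaCl, on either side of the 13.3% seen in each WT library. These shares describe the called loci, which were chosen on the same counts.

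**Figure D1:**
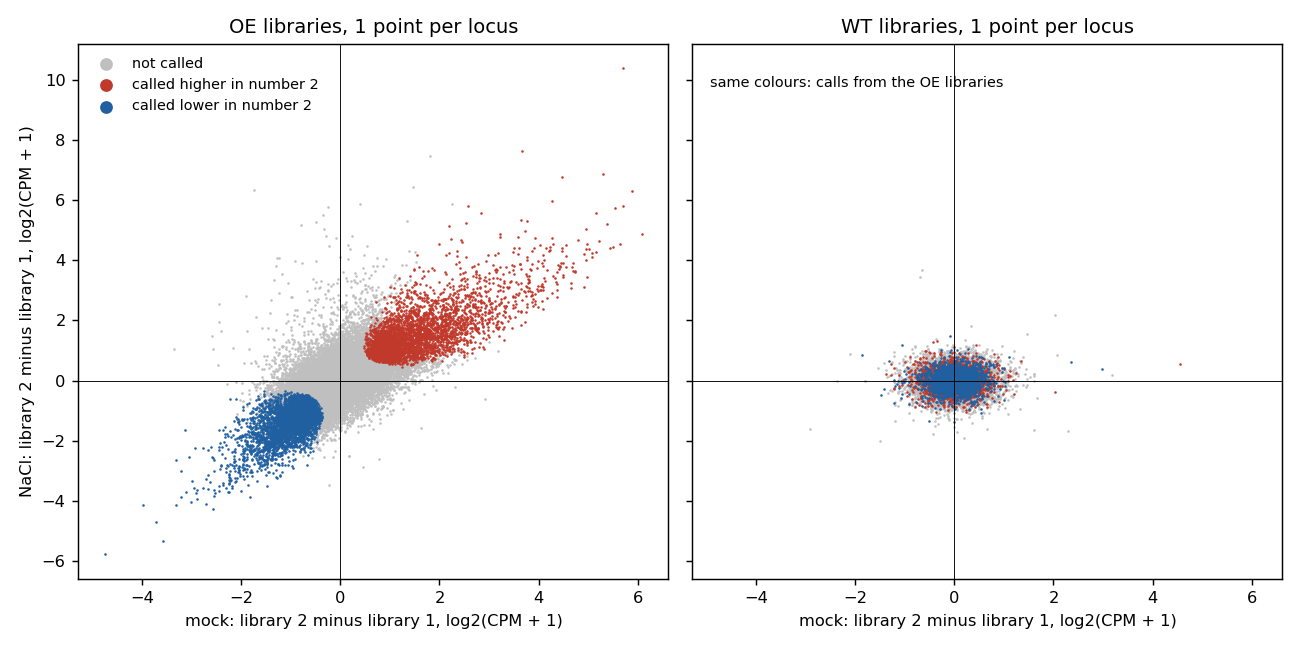
Difference between library 2 and library 1 on the log2(CPM + 1) scale within mock (horizontal) and within NaCl (vertical), 1 point per locus tested, for OE (left) and WT (right); colours mark the OE calls. OE loci spread along the diagonal, with 2240 loci at least 2-fold higher and 1487 at least 2-fold lower in number 2 in both treatments, while the same loci in WT gather around 0.

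The difference between numbers mostly went the same way in mock and in NaCl. On the log2(CPM + 1) scale, which understates the change of low loci, 2240 loci (6.87%) were at least 2-fold higher in library 2 within both treatments. At 1487 loci (4.56%) library 2 was at least 2-fold lower within both. In opposite directions 44 loci (0.135%) were 2-fold apart, 41 of them lower in mock and higher in NaCl. The same pairs in WT gave 2 loci (0.00613%) higher and 3 (0.00919%) lower within both treatments. Across the loci tested, the mock and NaCl differences were related with Pearson's r = 0.751 and Spearman's rho = 0.714 in OE, and with 0.0133 and 0.00686 in WT. Loci are not independent of each other, and these coefficients only describe the plot. Each pair is 1 library against 1, so these values carry no test.

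Large differences shared by both treatments were mostly toward higher levels in number 2. At least 4-fold differences within both treatments were found at 539 loci (1.65%) that were higher in number 2 and at 102 (0.313%) that were lower. For 8-fold these counts were 147 (0.451%) and 9 (0.0276%), and for 16-fold 37 (0.113%) and 1 (0.00306%). At 32-fold 7 loci (0.0215%) were higher and 0 (0%) lower. With a pseudocount of 0.5 the 2-fold counts of 2240 and 1487 became 2474 and 1849. A locus counts here only if both pairs pass, so the pair with the smaller difference sets the counts. Taken singly, with at least 20 CPM in the higher library, 4-fold differences in CPM numbered 510 higher and 74 lower in mock. In NaCl they numbered 736 higher and 381 lower, so the imbalance was smaller there.

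Whether the difference between numbers was unlike that in WT was tested as an interaction over all 8 libraries. edgeR called 4889 of 34023 loci (14.4%), of which 2312 (6.8%) had the larger difference in OE toward number 2 and 2577 (7.57%) toward number 1. Of the loci called higher in number 2 within OE, 2019 of 3427 also passed this test in the same direction, and of the lower loci 2400 of 3564. Both tests use the same difference between OE libraries, so this overlap is not independent support. At the higher loci the median log2 difference between WT libraries 2 and 1 was 0 in both treatments. In WT mock and WT NaCl, 23 and 6 of these 3427 loci were 2-fold apart. Of the 3564 lower loci 24 and 9 were, and of all 32629 loci tested in OE 188 and 103. DESeq2 called 3238 loci. The edgeR count was 1568 and 1742 without WT mock library 1 or 2, and 1503 and 1770 without WT NaCl library 1 or 2. Leaving out OE mock or OE NaCl library 1 gave 12738 and 8226. Leaving out their partners numbered 2 gave 1812 and 1871. A single spread was estimated for both genotypes in this test, although WT libraries varied far less. Nor do the labels link a number in OE to the same number in WT.

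The leading locus among those higher in number 2 was Glyma.01G130800 on chromosome 1 (coding length 960 bases, 1 model), which was detected in number 2 alone. It stood at 22.5 CPM in OE mock library 2 and 21.6 CPM in OE NaCl library 2, and had 0 counts in OE mock library 1, OE NaCl library 1 and all 4 WT libraries. Set against 3 counts over both number 1 libraries, it was at least 102-fold higher in number 2 (edgeR adjusted p = 0.000944). Its interaction with genotype could not be judged, because number 1 and both WT numbers had no counts.

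Glyma.20G220900 on chromosome 20 (coding length 669 bases, 1 model) followed the same pattern at a higher count. Number 2 held 46.5 CPM in mock and 41.2 CPM in NaCl, and number 1 held 0.148 and 0.141 CPM, a single count in each library. WT mock library 1 had 2 counts (0.332 CPM) and the other 3 WT libraries had 0. Number 2 exceeded number 1 by a ratio of 303 (edgeR adjusted p = 0.000419). Counting error alone allows 83.5 to 2510 (exact 95% interval). The interaction had an edgeR adjusted p of 0.0127, but it reuses the OE difference by which this locus was chosen and adds no independent support. It was lost without WT mock library 1, which holds all the WT counts of this locus (log2 difference 8.08).

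**Figure D2:**
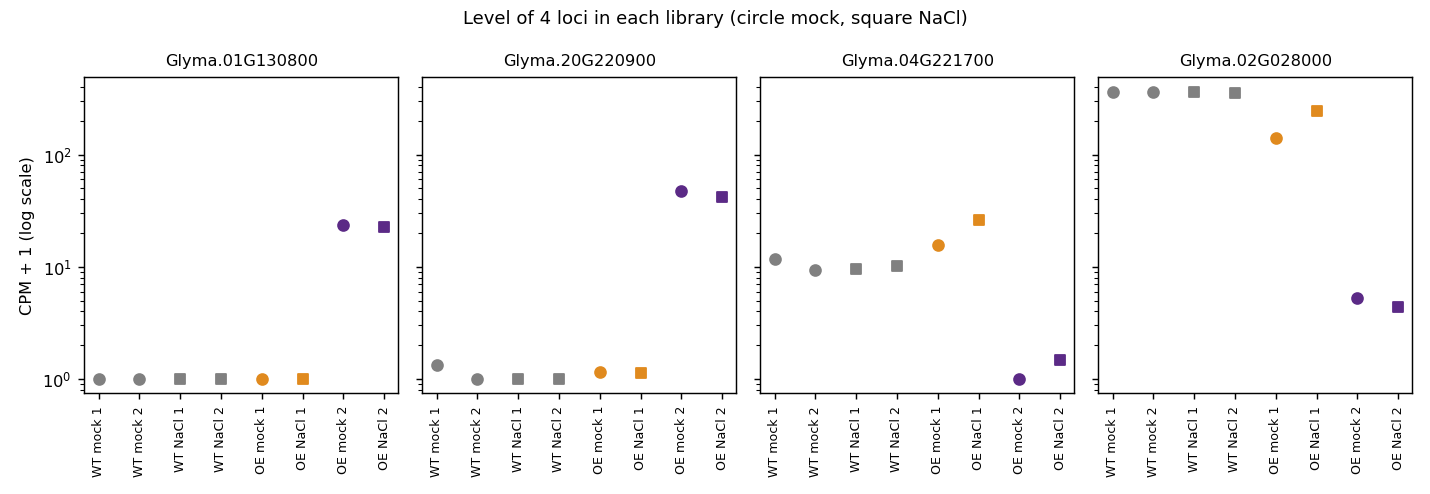
CPM + 1 on a log axis for the 4 printed loci in each of the 8 libraries (grey WT, orange OE number 1, purple OE number 2, circles mock, squares NaCl). For Glyma.01G130800 and Glyma.20G220900 number 2 lies above all other libraries, and for Glyma.04G221700 and Glyma.02G028000 it lies below them.

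Among the loci lower in number 2, Glyma.04G221700 on chromosome 4 (coding length 513 bases, 1 model) had the largest fitted change at a mean of 10 CPM or more. It reached 14.7 CPM in OE mock library 1 and 25 CPM in OE NaCl library 1. In number 2 it had 0 counts in mock and 3 counts (0.486 CPM) in NaCl. The WT libraries lay between the numbers, at 8.3 to 10.8 CPM. Number 1 exceeded number 2 by a ratio of 83 (edgeR adjusted p = 0.00287), for which counting error alone allows 28.1 to 405 (exact 95% interval). The interaction uses the same OE difference by which this locus was chosen, so it adds no independent support (log2 difference -6.13, edgeR adjusted p = 0.00136).

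Glyma.02G028000 on chromosome 2 (coding length 1071 bases, 1 model) was reduced in every OE library, and most in number 2. WT libraries held 350 to 363 CPM. Number 1 held 140 CPM in mock and 241 CPM in NaCl, or 191 ± 71.5 CPM (SD, n = 2). Number 2 held 4.29 and 3.4 CPM, or 3.85 ± 0.624 CPM (SD, n = 2). The log2 fold change of number 2 over number 1 was -5.69 ± 0.39 (standard error; edgeR adjusted p = 0.000831), and -5.59 in the interaction. All 4 loci carry fractional counts, so part of their reads is shared with other gene models. Each kept its call in all 13 alternatives that took loci as units. The adjusted p in these fits was at most 0.0255, and at most 0.0166 for all but Glyma.04G221700. With gene models as units edgeR called 0 models, so the single model of each of these loci was not called there.

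Loci on in only 1 number were found in 1 direction. With off defined as 0 counts in both libraries of a number and on as at least 20 counts in both libraries of the other, 19 loci on 12 chromosomes were off in number 1 and on in number 2. None (0 loci) showed the reverse. All 19 were called, compared with 21.4% of all loci tested, but they were chosen on the counts that the test uses, so this adds nothing. Their counts when on ranged from 20 to 142. Against 3 counts over both number 1 libraries they were at least 15.1-fold to 102-fold higher in number 2. In WT, 10 of the 19 had 0 counts in all 4 libraries, and 9 had at least 1 count. A single one of them, 1 of 19, had at least 20 counts in every WT library. A count of 0 in a library allows up to 3 counts, so these loci may be expressed below that level.

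Set against WT, number 1 was the nearer of the OE numbers at 2887 of the 3427 higher loci (84.2%) and at 2284 of the 3564 lower loci (64.1%), compared with 62.7% of all loci tested. The share among the lower loci is thus near that of all loci. Number 1 was itself far from WT, with a biological coefficient of variation of 42.33% to 45.5% against the WT libraries. For number 2 it was 59.47% to 60.55%. A number was counted as near WT when its mean log2(CPM + 1) lay within 1.5-fold of the WT mean. Of the 3427 loci higher in number 2, 1614 (47.1%) were near WT in number 1, and their median excess over WT in number 2 was 1.47. A further 1089 (31.8%) exceeded WT in both numbers and more so in number 2, with median differences of 1.15 in number 1 and 2.95 in number 2. At 321 loci (9.37%) number 2 was near WT and number 1 lay below it, by a median of -1.05. At 200 loci (5.84%) the numbers lay on opposite sides of WT. Among all loci tested 23.8% were near WT in number 1 alone and 10.8% in number 2 alone.

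The loci lower in number 2 divided differently. Of these 3564 loci, 1565 (43.9%) were near WT in number 1 and had a median difference of -1.15 in number 2. At 863 loci (24.2%) number 2 was near WT, and number 1 was above it by a median of 1.15. Both numbers lay below WT, number 2 farther, at 465 loci (13%), and opposite sides of WT were seen at 283 (7.94%). Loci with number 2 near WT and number 1 away from it were thus a larger share of the lower loci (24.2%) than of the higher loci (9.37%). No test was made of these shares.

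**Figure D3:**
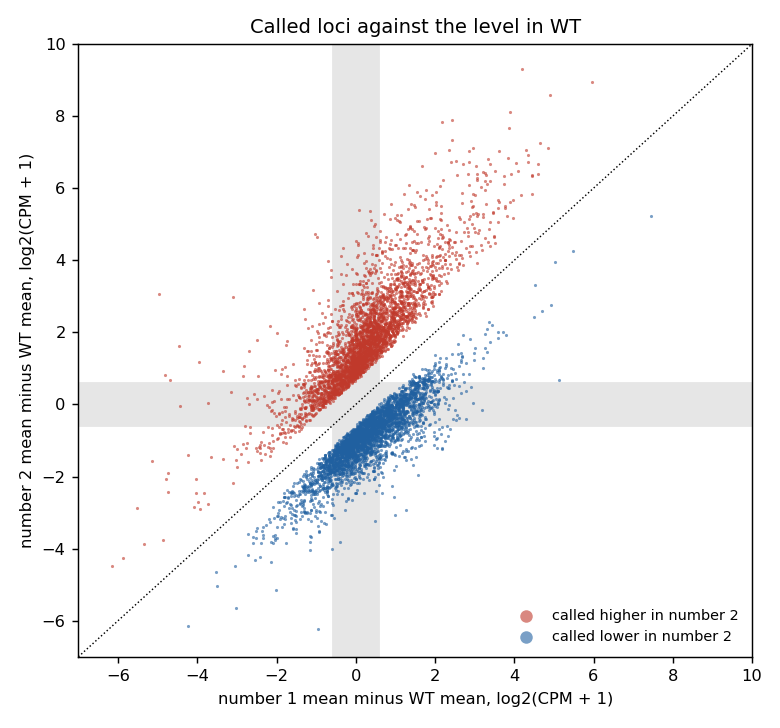
Mean of number 1 (horizontal) and of number 2 (vertical) minus the WT mean on the log2(CPM + 1) scale, 1 point per called locus; grey bands mark values within 1.5-fold of WT and the dotted line marks equal numbers. Many points lie in the vertical band, where number 1 is near WT (1614 higher and 1565 lower loci), and the higher loci reach farther from WT than the lower ones.

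Some abundant loci show these patterns well, and were chosen after their values were seen as the highest in CPM of their class among loci with a 4-fold difference. A locus on chromosome 9 (coding length 612 bases) stood at 4670 and 3860 CPM in mock and NaCl of number 2. In number 1 it was at 720 and 272 CPM, around the WT levels of 490 to 511 CPM (log2 fold change 3.06, edgeR adjusted p = 0.00899). Another locus on chromosome 9 (762 bases) lay on both sides of WT. It had 3110 and 3040 CPM in number 2, 59.3 and 1.27 CPM in mock and NaCl of number 1, and 360 to 378 CPM in WT (edgeR adjusted p = 0.0188). Here the number 1 libraries were themselves far apart.

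Among the lower loci, one on chromosome 10 (coding length 1479 bases) was at 869 and 1010 CPM in mock and NaCl of number 1 and at 135 and 114 CPM in number 2. WT lay between them, at 349 to 378 CPM (log2 fold change -2.97, edgeR adjusted p = 0.00205). A locus on chromosome 2 (1137 bases) was near WT in number 2, with 29.5 and 26.3 CPM against 25 to 28.6 CPM in WT. In number 1 it stood at 150 CPM in mock and 321 CPM in NaCl (log2 fold change -3.15, edgeR adjusted p = 0.00414). A locus on chromosome 18 (1062 bases) was nearly silent in WT, at 0 to 0.555 CPM, and in number 2, at 1.59 and 0.81 CPM. It reached 29.8 CPM in mock and 71.4 CPM in NaCl of number 1 (edgeR adjusted p = 0.00279). This was the only locus of its class with a 4-fold difference, so it stands for itself alone.

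Very low levels in WT were common among the loci that were much higher in number 2. Of the 147 loci at least 8-fold higher in number 2 within both treatments, 77 (52.4%) were below 1 CPM in all 4 WT libraries, compared with 1577 (4.83%) of all loci tested, and 38 (25.9%) were below 1 CPM in both number 1 libraries. Both numbers exceeded WT, number 2 more, at 67 of them (45.6%). At 50 (34%) number 1 was near WT, and at 27 (18.4%) number 1 was below and number 2 above WT. Of the 9 loci at least 8-fold lower, 1 (11.1%) was below 1 CPM in all 4 WT libraries, and 4 had number 1 above and number 2 below WT. Loci entered the test by their counts in the OE libraries alone, so a locus silent in WT is included only where OE libraries express it. The 147 loci were also chosen on their OE levels. The contrast of 52.4% with 4.83% can follow in part from these choices and was not tested.

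The number 1 libraries departed from number 2 by unequal amounts, mainly at loci lower in number 2. At loci lower in number 2 the difference was larger in NaCl than in mock at 78.7% of loci (2804 of 3564), with median log2 differences of -1.34 and -0.98. At loci higher in number 2 the NaCl difference was the larger at 52.4% (1797 of 3427), with medians of 1.43 and 1.39. Over all loci tested it was the larger at 60.1%.

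The mock difference was therefore expressed as a multiple of the NaCl difference, in CPM, at loci chosen from the NaCl libraries alone. A multiple of 1 places OE mock library 1 as far from its partner as OE NaCl library 1 is, and 0 places it level with OE mock library 2. At the 381 loci where OE NaCl library 1 held at least 20 CPM and at least 4-fold more than OE NaCl library 2, the median multiple was 0.463. The quartiles were 0.389 and 0.553, and 94.5% of these loci fell between 0.25 and 0.75. At the 736 loci where OE NaCl library 2 was the higher by the same measure, the median was 0.878 with quartiles of 0.561 and 1.06, and 25% fell in that range. The first group thus lay near the middle in OE mock library 1, and the second spread from near 0 to above 1. Loci were chosen on a large NaCl difference, which is the divisor, so the choice itself can lower the multiple.

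**Figure D4:**
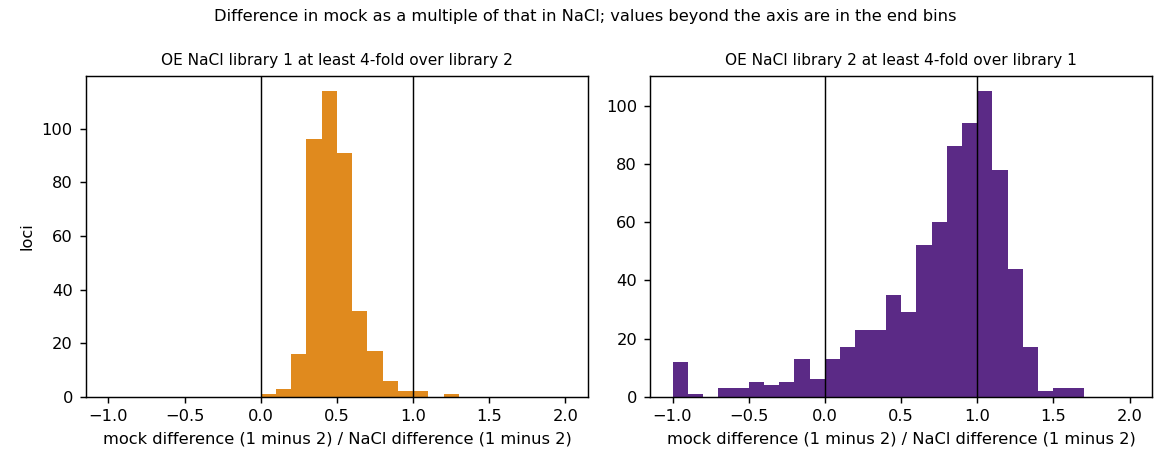
Number of loci by the difference between OE mock libraries 1 and 2 divided by that between OE NaCl libraries 1 and 2, in CPM, for loci at least 4-fold higher in OE NaCl library 1 (left) or in OE NaCl library 2 (right). The left group is narrow around its median of 0.463, and the right group is broad with a median of 0.878.

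The multiple at loci higher in OE NaCl library 2 moved with the WT level. For the 184 loci below 2 CPM in WT the median was 1.07, with quartiles of 0.937 and 1.17. It was 0.809 for the 337 loci at 2 to 20 CPM in WT and 0.731 for the 215 at 20 CPM or more. At loci higher in OE NaCl library 1 it was 0.468 for 169 loci of 2 to 20 CPM in WT and 0.463 for 206 loci of at least 20 CPM. The 6 loci below 2 CPM in WT had a median of 0.38, with quartiles of 0.336 and 0.397. When loci were chosen from the mock libraries instead, the NaCl difference was a median of 1.92 times the mock difference at 74 loci higher in library 1, and 0.878 times at 510 loci higher in library 2. At loci higher in library 2 the median was thus 0.878 under either choice, which does not place either number 1 library farther off there. These are descriptions of single libraries and were not tested.

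The mock and NaCl libraries lay farther apart within number 1 than within number 2. On the log2(CPM + 1) scale, NaCl minus mock had an SD of 0.578 over all loci tested in number 1 and 0.321 in number 2. At the loci lower in number 2, the median NaCl minus mock difference was 0.35 within number 1 and -0.07 within number 2. At the higher loci these medians were -0.06 and -0.06. With 1 library per treatment within a number, treatment and the difference between libraries cannot be told apart.

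Called loci were spread over all 20 chromosomes. The share of tested loci higher in number 2 lay between 8.41% on chromosome 4 and 12.3% on chromosome 7, near the 10.5% over all loci. The share lower in number 2 lay between 9.14% on chromosome 16 and 12% on chromosome 17. On the scaffolds outside the chromosomes 25 of 176 loci (14.2%) were higher and 21 (11.9%) lower. Along the chromosomes, 640 runs of 50 tested loci in order of locus ID held a median of 10% higher and 10% lower loci. The densest runs had 14 higher loci of 50 (28%, reached in 2 runs, the first on chromosome 7) and 13 lower loci of 50 (26%, on chromosome 13). Run medians of the log2 fold change lay between -0.51 on chromosome 10 and 0.52 on chromosome 13.

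**Figure D5:**
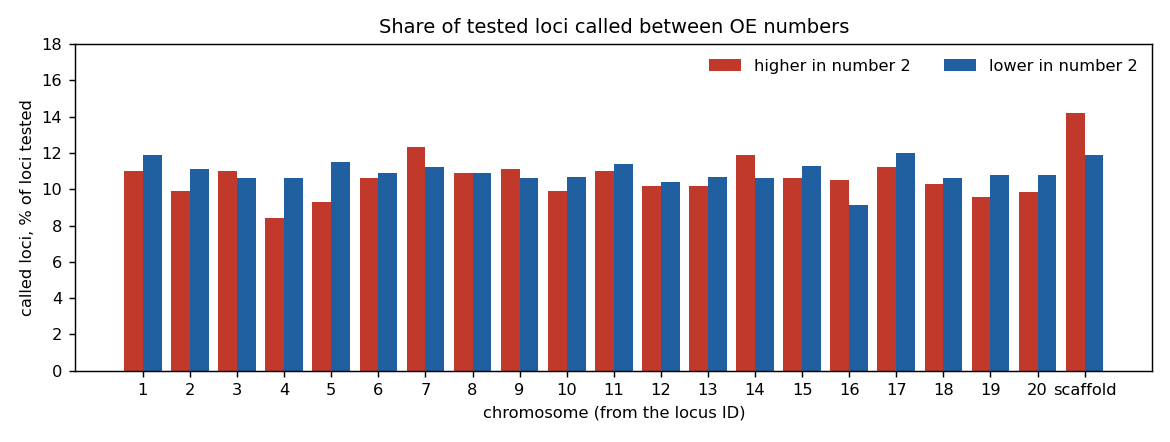
Share of tested loci called higher (red) or lower (blue) in OE number 2, in percent, for each of 20 chromosomes and the scaffolds. Higher shares lie between 8.41% and 12.3% and lower shares between 9.14% and 12% on the chromosomes.

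Neighbouring loci were called in the same direction somewhat more often than the shares over all loci. Of the higher loci 16.1% were followed by another higher locus, against 10.5% of all loci tested, and of the lower loci 13.8% were followed by another lower locus, against 10.9%. There were 546 neighbouring pairs of higher loci and 489 of lower loci among 32433 pairs. Neighbouring copies that share reads were counted separately, and no test was made.

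Higher loci were shorter than lower loci, and more abundant per length when averaged over the OE libraries. The median coding length of higher loci was 1113 bases, that of lower loci 1332 bases and that of all loci tested 1200 bases. In the quartile of shortest loci, up to 762 bases, 11.4% were higher and 8.64% lower. In the quartile of longest loci, from 1782 bases, 7.99% were higher and 12.8% lower. Over all loci of these quartiles the median log2 difference between library 2 and library 1 was 0.07 and -0.09 in mock, and 0.09 and 0.06 in NaCl, so it changed sign with length in mock only. The part of length in the calls was not tested.

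By abundance, taken as the authors' FPKM (a level scaled to model length and library size) summed per locus and averaged over the OE libraries, the share of higher loci grew from 8.4% in the lowest quartile to 13.9% in the highest. Lower loci kept shares of 10.3% to 11.4% in all 4 quartiles. Over all loci, the median log2 difference between library 2 and library 1 also rose from the lowest to the highest quartile. It went from -0.19 to 0.13 in mock and from -0.12 to 0.15 in NaCl. The ranking level also includes number 2, where higher loci are high. The part of abundance in the calls was not tested. Loci with an 8-fold difference were not compared between quartiles, because that difference on the log2(CPM + 1) scale itself requires a high level in 1 number.

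Both directions held loci with whole and with fractional counts. A fractional count shows that some reads of a locus were divided with other models, not how many. Expected counts were whole in all 4 OE libraries, within 0.01, at 617 of the 3427 higher loci (18%) and 410 of the 3564 lower loci (11.5%), against 13.7% of all loci tested. Among these 4485 loci with whole counts, 13.8% were higher and 9.14% lower.

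Pair by pair, the choice of gene model did not separate the numbers as levels did. The most abundant model of a locus was followed at 9176 loci with at least 2 models and 20 counts in each of the 8 libraries. It differed between OE mock libraries 1 and 2 at 1213 loci and between OE NaCl libraries 1 and 2 at 1181. Within numbers it differed between treatments at 1175 loci in number 1 and 1208 in number 2, and in WT between libraries 1 and 2 at 1239 loci in mock and 1107 in NaCl. A change of main model between numbers that was the same in both treatments occurred at 166 loci (1.81%). Of these, 23 (13.9%) were called at the level of the locus, against 16.2% of all 9176 loci. At 53 of the 166 a model's share of the locus was lower by at least 0.5 in both treatments. No matching count for WT or for the treatments is given here, so the 166 have no baseline.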

How the data were processed

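Barcoded mRNA libraries were prepared with an Illumina kit, per the labels' protocols. The authors deposited 1 file per library with an expected count and an FPKM value per gene model. The values came from RSEM, per the submitters' processing notes. No source used here gives its version, the aligner, the genome build or the annotation. The files list 74813 models at 47268 loci, none below an expected count of 0.01, and absent models were set to 0. All lengths are multiples of 3, so they are coding lengths.

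Expected counts were summed per locus and rounded. Number 2 was tested against number 1 in the 4 OE libraries with edgeR 4.0.16 in R 4.3.3 (filterByExpr, TMM, glmQLFit, glmQLFTest, Benjamini-Hochberg over all 32629 loci, 2 residual degrees of freedom). Treatment, balanced over numbers, stayed in the spread. The interaction used all 8 libraries. DESeq2 1.42.0, limma 3.58.1 and the other alternatives are described at the end. The deposited FPKM served only to rank loci by level. Log2 levels were computed from CPM with a pseudocount of 1. Scripts were tested on simulated counts.

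Printed loci are the 2 with the largest fitted change per direction among called loci with a mean of at least 10 CPM in OE and no overlap between numbers. The reference gene table (Glycine_max_v4.0) holds no IDs of the kind in the files, so 0 IDs matched, planned gene lists and promoter motifs were not run, and no sequence is shown. The comparison, thresholds and descriptions were chosen with earlier results of these data known. Floors, at 3 counts, and intervals cover counting error only.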

Additional observations from a re-analysis of the deposited data

Results flagged for a closer look

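The difference between numbers in OE was unlike that in WT at 4889 loci in edgeR's interaction test, and was flagged for that reason. The labels link no number in OE to the same number in WT, and a single spread was estimated for both genotypes. The count describes how far the OE numbers lay apart beside the WT numbers and is not read as an effect of genotype. Among the printed loci, the OE difference minus the WT difference on the log2 scale was 11.25 for Glyma.20G220900, a fitted value that rests on 2 counts in WT and 2 in number 1 and is no bound. It was -6.13 for Glyma.04G221700 and -5.59 for Glyma.02G028000. At 44 loci the numbers were at least 2-fold apart in opposite directions in mock and in NaCl; with 1 library per number and treatment, this difference was not tested.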

How the results depend on the processing

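The count of 6991 loci called between numbers became 2939 with no filter, 11981 when all 8 libraries were fitted together and 0 with gene models as units in edgeR (DESeq2 on models, added after seeing the data, gave 7558). Leaving out 1 library at a time gave 1916 to 15982, with the lone library of a number assumed to vary like the pair. It stayed within 1.5 times with RLE and upper-quartile scaling, the stricter filter, DESeq2, limma-voom and a 2-fold minimum. With treatment as a further term, so that the number is the replicate block of the treatments, 7131 loci were called, 6392 of them shared; the labels do not say that a number pairs the libraries. No locus called in edgeR's test of the OE libraries changed direction in any fit of loci. The interaction gave 4889 loci, 3238 with DESeq2, 1503 to 12738 without single libraries, and 3545 with treatment within genotype as further terms (replicate block). The cause of these changes was not tested. Counts near WT, and the multiples of OE mock library 1 (0.438 to 0.463 and 0.857 to 0.893 over TMM, RLE and upper-quartile scaling), were recomputed with scalings chosen after seeing the data, and counts of loci near WT in number 1 stayed within 1.5 times. For Glyma.20G220900 the interaction was lost without WT mock library 1 (adjusted p = 1). Gene lists could not be recomputed, since no list could be drawn from the locus IDs. At this depth a locus with 3 counts lies below 1 CPM, so absence is not shown by 0 counts.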
